A study of Homo sapiens with 40 samples.

Results

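The BT474 line was compared 1 h after epidermal growth factor (EGF) and 1 h after heregulin (HRG) in 4 ATAC-seq peak lists, 2 per ligand, of the 40 lists in the series. BT474 is a luminal breast cancer line with amplified HER2, whose growth trastuzumab, an antibody to HER2, inhibits. All cells were serum starved before treatment, and the groups used beside the ligands were BT474 with vehicle (water) for 1 h and BT474 without treatment at 0 h, each with 2 lists. Lists of EGF, HRG and vehicle at 12 and 24 h in BT474, and at 1 h in BT474R, the trastuzumab-resistant derivative, served to follow the regions found, again 2 per group. The ligands were given at different concentrations, so ligand and dose cannot be told apart here. The labels do not say that the duplicates were separate cultures, so the spread between them may be technical.

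The peaks of the 4 lists were merged where they overlapped by at least 1 bp, on chromosomes 1 to 22 and X. This gave 54456 regions, of which 43249 (79.4%) had a peak in all 4 lists. A region was called EGF-only where both EGF lists and neither HRG list had a peak, which held for 989 regions, and HRG-only in the reverse case, which held for 299 regions. The second measure was the rank percentile of a peak within its own list, from its deposited score, where 100 is the strongest peak and 0 stands for no peak.

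EGF binds EGFR, which in HER2-amplified cells pairs mainly with HER2. Heregulin binds HER3 and HER4 and brings them together with HER2. Both kinds of receptor pair switch on the RAS-ERK and PI3K-AKT pathways, and within minutes the ERK branch induces immediate early genes such as FOS, EGR and KLF factors. FOS and JUN proteins form AP-1, which binds the sequence TGACTCA and is known for opening chromatin at enhancers. ATAC-seq reads this as more transposase insertion, and a region that opens enough is called as a peak.

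The promoters of the receptors themselves were open in all 4 lists. ERBB2, which encodes HER2, ranked at 99.99 or above in each of them. The gene is amplified in this line, and the part of its copy number in this rank was not tested. ERBB3 (HER3) ranked at 98.9 and 98.5 after EGF and at 98.5 and 98.5 after HRG, and EGFR at 92.0 and 90.4 after EGF and at 92.0 and 92.4 after HRG. The promoter of ERBB4 (HER4) was weaker, at 54.5 and 64.4 after EGF and at 51.7 and 55.3 after HRG. All 10 luminal epithelial markers had a promoter peak in all 4 lists, against 3 of 6 basal, 1 of 5 fibroblast, 1 of 4 endothelial and 1 of 5 leukocyte markers.

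The 6 regions below are high-ranked examples of the 2 classes and not typical members. Each is given as 200 bases around the summit of the highest-ranked peak, on the plus strand of GRCh38 and 5′ to 3′. Capitals mark an AP-1 match (TGACTCA, or TGAGTCA on the other strand). The pair shown with matches was chosen from HRG-only regions alone, although 96 of 989 EGF-only and 68 of 299 HRG-only regions held one. The first pair are the highest-ranked EGF-only regions away from promoters, both in introns (SGCD and SDCCAG8). The next pair are the highest-ranked HRG-only regions away from promoters, 1150 bp past the end of CCN2 and in an intron of EPHA1. The last pair are the highest-ranked of 44 HRG-only regions (1 chromosome was left out of this choice) that lay away from promoters, held an AP-1 match and had no peak at 0 h or with vehicle, both intergenic, the first with no protein-coding start within 100 kb and the second 71.3 kb from the ERRFI1 start.
SGCD intron, chr5:156037220-156037419: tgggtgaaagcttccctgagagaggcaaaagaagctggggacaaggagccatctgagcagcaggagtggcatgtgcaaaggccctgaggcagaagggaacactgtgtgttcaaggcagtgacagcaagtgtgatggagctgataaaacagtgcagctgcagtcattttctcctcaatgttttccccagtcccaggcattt
SDCCAG8 intron, chr1:243462623-243462822: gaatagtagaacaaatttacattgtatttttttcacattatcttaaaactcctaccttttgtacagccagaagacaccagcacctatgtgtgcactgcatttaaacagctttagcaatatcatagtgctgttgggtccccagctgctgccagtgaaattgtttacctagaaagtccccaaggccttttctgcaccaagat
CCN2 downstream, chr6:131946926-131947125: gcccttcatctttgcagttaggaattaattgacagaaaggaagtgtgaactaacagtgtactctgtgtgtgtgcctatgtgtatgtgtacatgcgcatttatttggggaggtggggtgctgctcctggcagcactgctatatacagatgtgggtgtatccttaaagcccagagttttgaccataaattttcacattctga
EPHA1 intron, chr7:143393026-143393225: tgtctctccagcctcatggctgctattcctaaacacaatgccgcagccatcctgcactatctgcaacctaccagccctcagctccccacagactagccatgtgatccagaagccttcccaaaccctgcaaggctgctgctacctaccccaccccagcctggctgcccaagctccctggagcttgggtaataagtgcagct
Chromosome 1 intergenic, chr1:244164111-244164310: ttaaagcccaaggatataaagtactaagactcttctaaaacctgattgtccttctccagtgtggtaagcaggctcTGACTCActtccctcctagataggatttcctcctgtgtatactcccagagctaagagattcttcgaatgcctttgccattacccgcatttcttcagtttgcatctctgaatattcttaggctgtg
ERRFI1 intergenic, chr1:8097552-8097751: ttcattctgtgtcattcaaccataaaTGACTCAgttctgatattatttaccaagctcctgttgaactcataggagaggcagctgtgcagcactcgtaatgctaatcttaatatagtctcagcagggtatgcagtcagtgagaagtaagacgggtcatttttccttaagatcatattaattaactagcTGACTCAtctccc

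The 4 lists were of unequal length, and the numbers of ligand-specific regions changed when the lists were cut to equal length. The EGF lists held 52629 and 48883 peaks and the HRG lists 47571 and 49579, so the groups overlapped. EGF exceeded HRG by 2181 peaks on average, which was within the spread of the duplicates (exact permutation test, two-sided, p = 0.667, where 2 against 2 cannot give less than 0.333). Peaks within 1 kb of a protein-coding start made up 32.4% and 33.8% of the EGF lists and 34.6% and 33.5% of the HRG lists, a difference of -0.93 percentage points on average (exact permutation test, p = 0.667).

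EGF-only regions were 1.82% and HRG-only regions 0.549% of all merged regions. However, 1063 regions were held by EGF replicate 1 and HRG replicate 2 alone, more than by the EGF pair. Regions held by 1 EGF and 1 HRG list numbered 1966 in all. When each list was cut to its 47571 highest-scoring peaks, the EGF pair shared 630 regions and the HRG pair 591, while the 4 mixed pairs shared 373 to 463. At equal length both same-ligand pairs therefore held more regions of their own than any mixed pair, and the excess of EGF-only over HRG-only regions was small. Of the 989 EGF-only regions 441 overlapped an EGF-only region at equal length, and of the 299 HRG-only regions 214 overlapped an HRG-only one. With a minimum score of 400 there were 682 EGF-only and 151 HRG-only regions, of which only 1 and 2 overlapped a region of the respective class at the deposited minimum. Membership therefore depended closely on the score at which a peak was listed. Over whole lists the ligands hardly separated by the bases they covered. Of the bases covered by at least 1 of 2 lists, both covered 85.0% for the EGF pair and 84.8% for the HRG pair. For the mixed pairs this share was 83.2% to 85.6%. It was 82.0% to 82.4% between EGF and vehicle and 80.0% to 81.6% between HRG and vehicle.

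**Figure D1:**
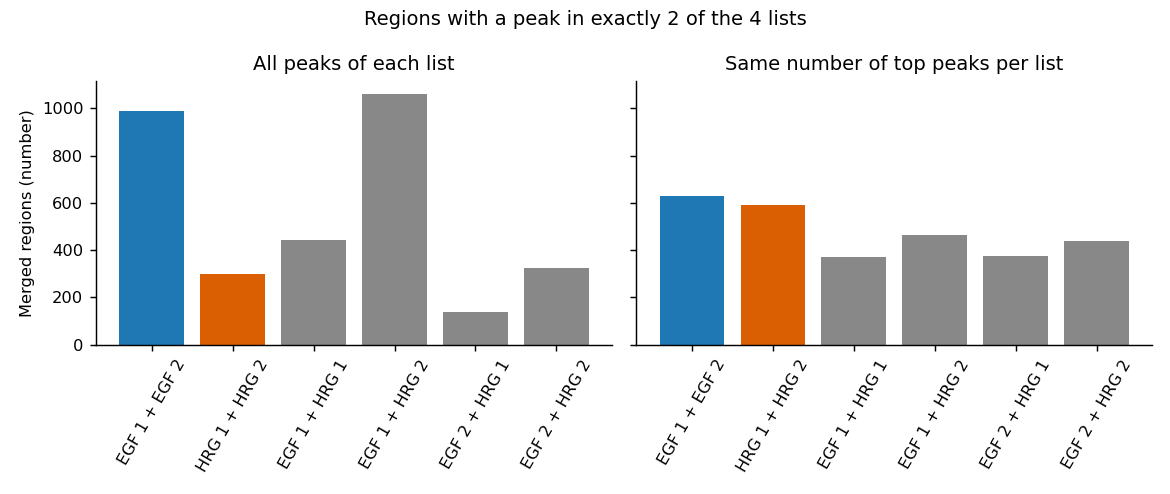
Number of merged regions (y axis) with a peak in exactly 2 of the 4 lists, by pair of lists (x axis). With all peaks (left) the pair EGF 1 + HRG 2 held 1063 regions and the EGF pair 989. With 47571 top peaks per list (right) the EGF pair held 630 and the HRG pair 591, above the mixed pairs at 373 to 463.

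Both classes were made of weak, short and mostly distal peaks. The mean percentile over the lists that held it had a median of 8.91 in EGF-only and 7.39 in HRG-only regions, against 55.7 in regions of all 4 lists. The median width was 301 bp in EGF-only regions, 290 bp in HRG-only regions and 619 bp in regions of all 4 lists. Promoters made up 12.9% of EGF-only and 18.4% of HRG-only regions, against 35.6% of the regions of all 4 lists. Regions of 1 EGF and 1 HRG list were alike in these respects, with a median percentile of 7.51 and 15.7% promoters.

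The vehicle lists, which the classes did not use, separated the 2 classes. A peak was present in 63.2% and 64.7% of EGF-only regions in the 2 vehicle lists, but in 21.4% and 20.7% of HRG-only regions. Regions of 1 EGF and 1 HRG list lay between them, at 48.0% and 48.0%. Both vehicle lists had a peak in 508 EGF-only regions (51.4%) and in 36 HRG-only regions (12.0%). Neither had one in 232 EGF-only (23.5%) and 209 HRG-only regions (69.9%). Over all merged regions both vehicle lists had a peak in 82.2% and neither in 10.4%, so both classes were called with vehicle less often than regions in general. Thus most HRG-only regions were not called without ligand, while most EGF-only regions were also called with vehicle and were missing from the HRG lists. At equal list length, and with the 0 h lists added, 50.3% of HRG-only and 13.5% of EGF-only regions had no peak in any of the 4 untreated lists.

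At later times the HRG-only regions were more often called with either ligand than with vehicle. At 12 h they had a peak in 44.8% and 45.5% of cases in the HRG lists, 34.1% and 45.5% in the EGF lists, and 23.7% and 19.7% in the vehicle lists. At 24 h the shares were 41.8% and 35.8% with HRG, 42.5% and 47.5% with EGF, and 30.1% and 26.1% with vehicle. All merged regions together moved the same way at 12 h by fewer points, at 90.6% and 90.8% with HRG, 89.8% and 91.8% with EGF and 85.5% and 85.3% with vehicle. At 24 h they stood at 87.8% and 87.3%, 89.6% and 91.3%, and 88.3% and 86.5%. Regions of 1 EGF and 1 HRG list had a peak in 61.2% to 69.8% of cases with either ligand at 12 h and in 49.2% and 47.4% with vehicle. The part of list length in these shares was not tested. For HRG-only regions the EGF and HRG lists overlapped at 12 h, and at 24 h both EGF lists lay above both HRG lists. EGF-only regions were called in 75.5% and 80.1% of cases with EGF at 12 h, in 72.7% and 73.0% with HRG and in 65.9% and 63.6% with vehicle. At 24 h the shares were 75.5% and 77.8% with EGF, 64.7% and 67.7% with HRG and 73.1% and 68.7% with vehicle, so HRG then lay below vehicle. In BT474R, HRG-only regions had a peak 1 h after HRG in 31.1% and 34.8% of cases, after EGF in 31.4% and 25.4%, and with vehicle in 29.1% and 28.4%. Both HRG lists thus lay slightly above both vehicle lists, and the EGF lists overlapped both groups. EGF-only regions had a peak in BT474R in 48.6% and 42.0% of cases after EGF, 50.4% and 57.2% after HRG and 57.9% and 55.5% with vehicle. All merged regions were likewise called least often after EGF in BT474R, at 76.2% and 72.3%, against 76.7% and 80.2% after HRG and 78.9% and 78.2% with vehicle.

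**Figure D2:**
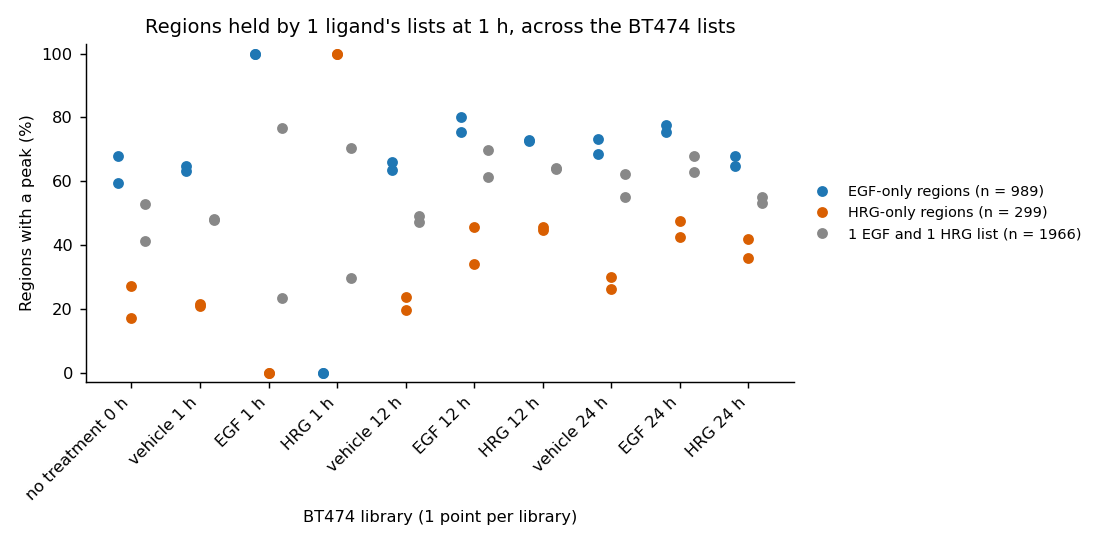
Share of regions with a peak (y axis, %) in each of the 20 BT474 lists (x axis, 1 point per list), for EGF-only regions (blue), HRG-only regions (orange) and regions of 1 EGF and 1 HRG list (grey). The 1 h ligand lists define the classes and stand at 0 or 100 for the first 2. HRG-only regions lay at 20.7% and 21.4% with vehicle at 1 h and between 34.1% and 47.5% with either ligand at 12 and 24 h.

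AP-1 matches within 100 bp of the summit were found in 22.7% of HRG-only regions (68 of 299) and in 9.71% of EGF-only regions (96 of 989), against 12.8% of all merged regions. TEAD matches (ACATTCC) were found in 8.03% of HRG-only and 3.13% of EGF-only regions, against 4.89% of all. FOX matches (TGTTTAC), the site of forkhead factors such as the luminal factor FOXA1, were found in 6.69% of HRG-only and 10.8% of EGF-only regions, against 7.84% of all. CTCF matches were found in 4.35% of HRG-only and 3.54% of EGF-only regions, against 3.57% of all. The AP-1 difference moved with the vehicle status of the regions. Among regions with no vehicle peak, 28.2% of HRG-only and 21.6% of EGF-only regions held an AP-1 match, as did 22.5% of the regions of 1 EGF and 1 HRG list and 42.1% of the regions of all 4 lists. The exact 95% binomial intervals of HRG-only (22.2% to 34.9%) and EGF-only regions (16.4% to 27.4%) overlapped. With the 0 h lists added, regions with no untreated peak held a match in 31.0% of HRG-only (54 of 174) and 30.9% of EGF-only regions (46 of 149). At equal list length these shares were 37.5% (109 of 291) and 27.7% (23 of 83). Among regions with a peak in both vehicle lists the shares were 2.78% for HRG-only, 2.56% for EGF-only and 11.5% for regions of all 4 lists. Regions that were called with ligand and not without it thus held AP-1 matches more often in each class, whichever ligand's lists held them.

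**Figure D3:**
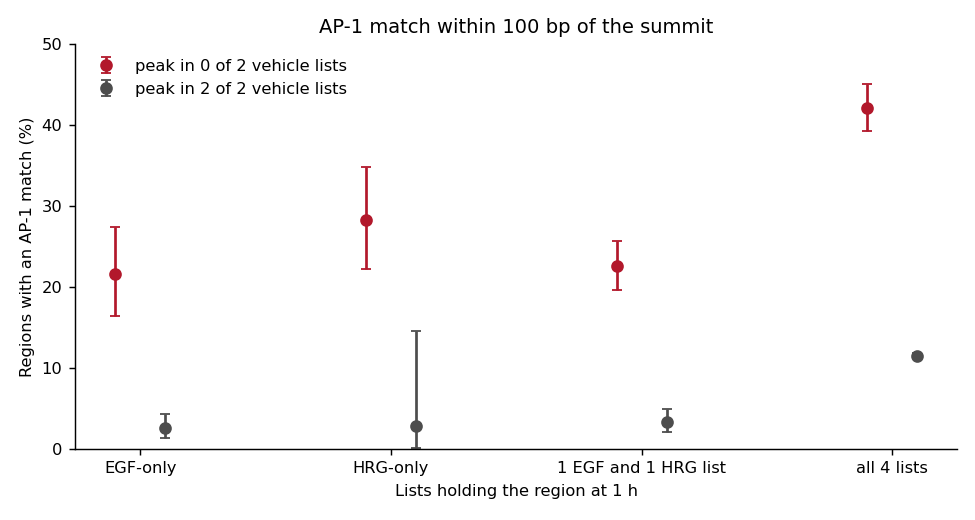
Share of regions with an AP-1 match (y axis, %) by the lists that held the region (x axis), for regions with no peak in the vehicle lists (red) and with a peak in both (dark grey). Bars are exact 95% binomial intervals and cover counting error only. With no vehicle peak the share was 21.6% in EGF-only and 28.2% in HRG-only regions, with overlapping intervals, and 42.1% in regions of all 4 lists.

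Against the 4 untreated lists (0 h and vehicle), the ligand lists both gained and lost regions. All of these counts share the same untreated lists. At equal list length, the EGF lists had 1593 and 1760 regions with no untreated peak and the HRG lists 2202 and 2310. Of 41302 regions held by all 4 untreated lists, 1291 and 1392 were missing after EGF (3.13% and 3.37%) and 2010 and 1776 after HRG (4.87% and 4.30%). Both HRG lists thus departed more from the untreated lists than both EGF lists did, in both directions (exact permutation test on each count, p = 0.333, the smallest that 2 against 2 allows). With all peaks of each list the gained regions overlapped between the ligands, at 2883 and 1791 after EGF and 1866 and 2536 after HRG. AP-1 matches were held by 33.5% and 38.1% of the regions gained after EGF and by 36.6% and 37.9% of those gained after HRG, at equal length.

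The same direction was seen in regions that all 4 ligand lists held. The scores of all peaks of a region were summed here, and the 43249 shared regions were ranked anew within each library, so that every library had the same number of ranks. Over all shared regions both EGF libraries lay above both HRG libraries in 19.1% and both HRG libraries above both EGF libraries in 19.6%. Among the 1154 shared regions with no vehicle peak, the HRG libraries were higher in 465 (40.3%) and the EGF libraries in 61 (5.29%). The median percentile of these 1154 regions was 6.08 and 7.21 in the EGF libraries and 11.0 and 11.4 in the HRG libraries, so the groups did not overlap. By the percentile within each list the medians overlapped, at 17.8 and 14.2 for EGF and 16.6 and 20.6 for HRG. Among the 40731 shared regions with a peak in both vehicle lists the shares were even, at 18.7% and 19.9%. By the percentile within each list, which moves with its length, EGF was higher in 28.9% and HRG in 8.78% of all shared regions, but in 8.75% and 27.5% of those with no vehicle peak. Shared regions with an AP-1 match were higher after HRG in 29.6% and after EGF in 11.3%, by the anew ranked sums, but in 15.6% and 19.6% by the percentile within each list. For ETS matches (CCGGAAGT), a site of ETS family factors, the shares were 25.8% and 8.55%, and for TEAD matches 27.4% and 14.2%. CRE matches (24.8% and 14.1%) and CTCF matches (20.6% and 13.9%) leaned to HRG as well. By these sums promoters as a whole leaned to HRG (21.0% and 15.6%), while other regions leaned to EGF (18.8% and 21.1%). The part of promoters in the motif shares was not tested. The list percentile turned the motif directions too, to 10.9% and 16.2% for ETS, 14.3% and 21.4% for TEAD, 9.65% and 23.8% for CRE and 7.80% and 24.5% for CTCF. Regions with a GRHL match (AACCNGTT), the site of grainyhead factors of epithelia, leaned the other way by the anew ranked sums. Of these, 24.5% were higher after EGF and 16.5% after HRG. GATA (23.3% and 17.4%), FOX (22.8% and 17.3%) and CEBP matches (22.7% and 17.9%) leaned to EGF as well. By the list percentile every motif searched leaned to EGF, GRHL among them (34.7% and 7.08%), as all shared regions did. That scale therefore cannot bear out these leanings.

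**Figure D4:**
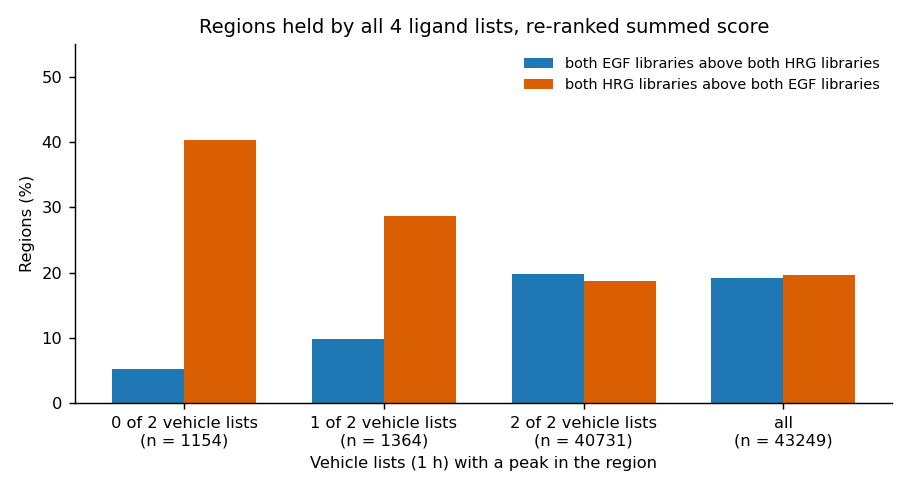
Share of the regions held by all 4 ligand lists (y axis, %) in which both EGF libraries lay above both HRG libraries (blue) or the reverse (orange), by the number of vehicle lists with a peak (x axis), on the summed score ranked among shared regions. With no vehicle peak the shares were 5.29% and 40.3%, against 19.1% and 19.6% over all shared regions.

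The 6 highest-ranked HRG-only regions had no peak in any of the 16 other BT474 lists, including those at 12 and 24 h. The first lay downstream of CCN2 (chr6:131945993-131947495), which encodes a matricellular protein and is a known target of YAP-TEAD and SRF. It ranked at 69.5 and 78.0 in the HRG lists and at 0 in both EGF lists, both vehicle lists and both 0 h lists. The CCN2 promoter itself was open throughout, at 63.7 and 70.6 with vehicle, 84.9 and 80.6 after EGF and 89.1 and 89.1 after HRG. Its order of groups was thus vehicle, EGF and HRG, without overlap. The region in EPHA1, an ephrin receptor (chr7:143393000-143394088), ranked at 39.1 and 48.4 after HRG. Also HRG-only were 2 regions of KLF6, a zinc finger factor of the immediate early response. The exonic one (chr10:3775051-3776472) ranked at 41.2 and 24.0 after HRG. The other (chr10:3779903-3780692), in an intron and 150 bp from an annotated start, ranked at 6.83 and 11.3. The strongest KLF6 promoter region was open throughout, at 96.2 and 96.0 after EGF, 96.0 and 96.1 after HRG and 92.8 and 94.5 with vehicle. The others lay in introns of FNDC3A (25.7 and 39.96) and RBMS2 (30.4 and 28.7) and 11.4 kb from CTPS1, the CTP synthase gene (36.5 and 29.1).

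The 6 highest-ranked EGF-only regions had a peak in both vehicle lists. The region at the NSMCE1 start (chr16:27232396-27233752), a subunit gene of the SMC5/6 complex, ranked at 48.1 and 32.1 after EGF, 34.6 and 50.1 with vehicle and 45.5 and 48.2 at 0 h. After HRG it was not called at 1 h and ranked at 6.70 and 3.79 at 12 h, where EGF gave 58.3 and 58.3. The SDCCAG8 intron (chr1:243462452-243462857), in a centrosomal protein gene, ranked at 36.9 and 26.6 after EGF, below vehicle at 54.9 and 50.8. By 12 h it was called after HRG as well, at 57.5 and 46.9. The SRRM3 intron ranked at 31.8 and 26.9 after EGF and at 28.7 and 48.7 with vehicle. The ABHD2 intron ranked at 29.9 and 31.5 after EGF and at 23.5 and 10.1 with vehicle. The remaining 2, in an SGCD intron and between genes on chromosome 9, ranked at 35.6 and 36.6 and at 22.2 and 40.002 after EGF. The EGF and vehicle values overlapped in 4 of the 6 regions, lay below vehicle at SDCCAG8 and above it at ABHD2, and the HRG lists had no peak in any.

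**Figure D5:**
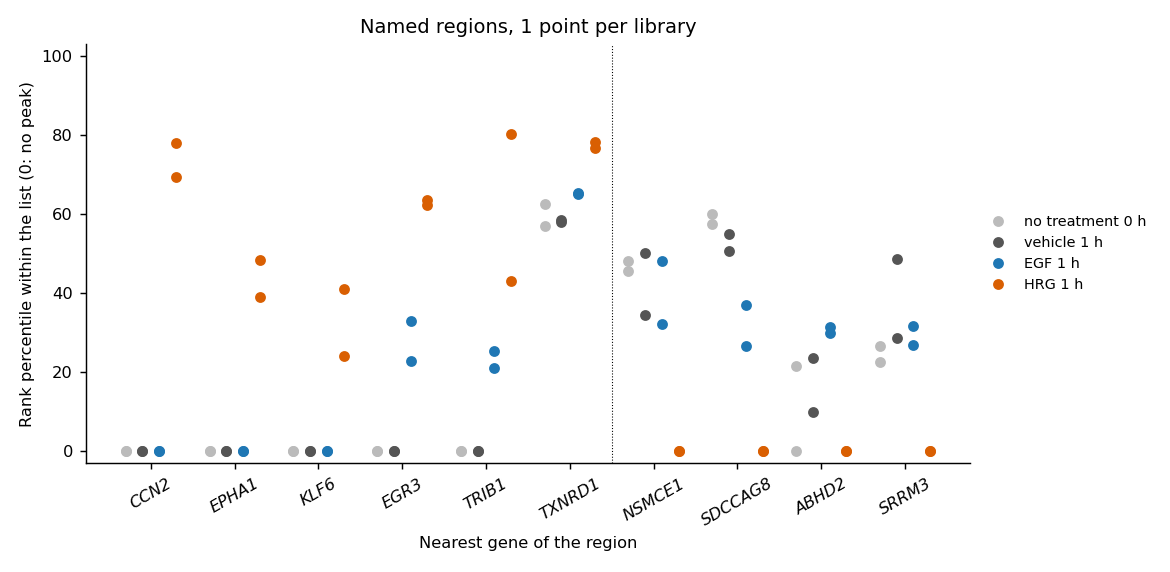
Rank percentile within the list (y axis, 0 where the list had no peak) for named regions (x axis, nearest gene), 1 point per library. Left of the dotted line are regions higher after HRG, right of it EGF-only regions. At CCN2, EPHA1, KLF6, EGR3 and TRIB1 the vehicle and 0 h libraries stood at 0, and at NSMCE1, SDCCAG8, ABHD2 and SRRM3 both vehicle libraries had a peak.

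Regions of all 4 lists were then tested for a difference in percentile with limma. At an adjusted p under 0.05, 13 of 43249 regions were higher after EGF (0.0301%) and 14 higher after HRG (0.0324%). The median of all regions was 1.05 points higher after EGF. The 13 were all regions that both EGF lists held as 1 peak, and 13 of the 14 were held in fewer peaks by both HRG lists than by either EGF list. In the remaining one, too, the lists held different numbers of peaks, which was so in 4.59% of all tested regions. Higher after EGF were the promoters of MGAT5, a glycosyltransferase (95.2 and 94.6 against 77.9 and 79.5, 16.2 points, limma adjusted p = 0.00776), HOXC10, POU2F1, PHF19 and SUMF2. So were a region in IL17RE that lay within the promoter distance of IL17RC, and 2 regions on chromosomes 13 and 1 with no start within 100 kb. Higher after HRG were the promoters of GALNT18 (87.2 and 87.1 against 97.1 and 97.3), SEMA5A, CLIP1, TRIM47, HSPB8, SLC25A29 and ZNF296 and a region in ARHGAP42. When the scores of all peaks in a region were summed before ranking, limma called 0 regions in either direction, with 1828 and 1808 at an unadjusted p under 0.05, and MGAT5 differed by 1.13 points (adjusted p = 0.522). Among the 41220 regions with exactly 1 peak in each list limma also called 0, with 2662 and 529 at an unadjusted p under 0.05.

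On the log2 of the summed score, quantile normalized, limma called 1 region higher after EGF and 11 higher after HRG, a setting added after the data were seen (adjusted p from 0.0217 to 0.0392). The genes near the 11 were read off the list and were not compared with those near all tested regions. EGR3, an immediate early factor, had a region 1799 bp past its end that ranked at 22.9 and 33.1 after EGF and at 63.4 and 62.2 after HRG. That region had no peak with vehicle or at any other time in BT474, and its log2 difference, EGF minus HRG, was -1.28 ± 0.16 (SE, limma adjusted p = 0.0217). TRIB1, a pseudokinase gene, had a region 2607 bp past its end at 21.2 and 25.5 after EGF and 43.0 and 80.2 after HRG, with no vehicle peak. HRG replicate 2 held it as 1 peak and the other lists as 2, so its percentile there is that of the joined peak, while the summed score adds both peaks (log2 difference -1.06 ± 0.14).

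An intronic region of TXNRD1, thioredoxin reductase, with an AP-1 match ranked at 65.3 and 65.0 after EGF, 76.6 and 78.2 after HRG and 58.4 and 58.0 with vehicle. Its log2 difference was -0.61 ± 0.08. Regions of the actin genes ACTB and ACTG1 and of PMEPA1, an inhibitor of TGF-beta signalling, ranked at 97.8 or above in all 4 lists and differed by less, from -0.33 to -0.10. Further regions lay at NRBP2 and in DNAJB13. The 1 region higher after EGF, on chromosome 13 with no start within 100 kb, ranked at 48.6 and 62.8 after EGF and 30.9 and 37.1 after HRG, and above both with vehicle (68.2 and 68.8). Of these 12 regions 6 had exactly 1 peak in each list. None of the 12 was called on the percentile of the summed score, where the adjusted p of limma was 0.453 for EGR3.

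Single-peak regions that moved by at least 20 points without overlap of the groups numbered 179 towards EGF (0.434% of 41220) and 40 towards HRG (0.097%). This size was chosen after the data were seen. For comparison, the 2 EGF libraries differed by 20 points or more in 733 of the same regions and the 2 HRG libraries in 698. On the anew ranked sums over the 43249 shared regions the numbers were 73 and 86, against 228 and 59 by list percentile, so the excess towards EGF turned into a small one towards HRG. The 2 sets differed in vehicle. The 179 had a median percentile of 36.7 after EGF, 13.9 after HRG and 38.6 with vehicle, and 168 (93.9%) had a peak in both vehicle lists, the same share as all 41220 single-peak regions (93.9%). The 40 had a median of 37.8 after HRG, 14.5 after EGF and 1.27 with vehicle, and 20 had no vehicle peak, against 2.78% of all single-peak regions. AP-1 matches were held by 10 of the 40 and by 10 of the 179 (5.59%), against 13.1% of the single-peak regions.

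Among the 40 were regions at ATF3, a stress and growth factor induced member of the AP-1 related factors (26.9 and 17.7 after EGF, 46.2 and 43.6 after HRG, 0 and 0 with vehicle), and at EGLN3, an oxygen-sensing prolyl hydroxylase (12.6 and 3.79 against 36.7 and 37.1, 0 and 0 with vehicle). A region 5648 bp past the end of KRT8, a luminal keratin, ranked at 6.13 and 0.80 after EGF and 39.99 and 31.0 after HRG, with no peak in the other BT474 lists. Among the 179 were regions 31.2 kb from DUSP6, an ERK phosphatase (35.4 and 37.1 after EGF, 2.31 and 9.17 after HRG, 18.3 and 33.5 with vehicle), and 54.0 kb from SPRED2, an inhibitor of RAS-ERK signalling (46.8 and 35.4 against 14.0 and 25.8). For SPRED2 vehicle stood at 17.4 and 10.7, below both EGF values, and the 0 h lists at 36.6 and 23.7.

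The gene lists showed few changes at promoters. All 28 immediate early genes had a promoter peak in all 4 lists. EGR1 ranked at 99.9 in each and JUNB at 99.5 or above, so that the percentile could hardly separate them. MAFK, a small MAF factor, ranked at 90.9 and 90.5 after EGF, 95.6 and 97.3 after HRG and 84.7 and 85.2 with vehicle. EGR2 ranked at 93.5 and 92.4 after EGF, 93.7 and 98.3 after HRG and 90.7 and 88.9 with vehicle. FOS ranked at 82.9 and 79.9 after EGF and at 82.8 and 95.3 after HRG, so its groups overlapped. None of these 28 promoters was called by limma.

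Of the 155 regions nearest to an immediate early gene, 4 were EGF-only and 5 HRG-only, which is 2.58% and 3.23%, against 1.70% and 0.535% of all regions within 100 kb of a start. The 5 lay at KLF6 (2), CCN2, NR4A1 and EGR4, and the 4 at FOSL2 (2), JUN and CCN1. The NR4A1 region, in an exon and within the promoter distance, was at the bottom of the lists (3.72 and 1.19). Vehicle peaks overlapped it later, at 51.6 in 1 list at 12 h and at 72.6 and 99.8 at 24 h. The EGR4 region ranked at 3.10 and 1.62 after HRG. It was also called without ligand, at 6.66 and 0.36 at 0 h and at 1.30 in 1 vehicle list at 1 h. A FOSL2 region within the promoter distance was called with vehicle at 22.01 and 27.5, after EGF at 8.82 and 2.26 and not after HRG. The strongest FOSL2 promoter region ranked at 98.8 and 98.6 after EGF and at 98.3 and 98.6 after HRG. Of 156 regions nearest to feedback genes of ERK and receptor signalling, 0 were EGF-only and 1 was HRG-only, the ERRFI1 region (23.9 and 26.2 after HRG). ERRFI1 encodes an inhibitor of EGFR family kinases.

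For the other lists, HRG-only regions numbered 2 of 171 (1.17%) at luminal and steroid receptor genes (RARA and ESR1), against 0.535% of all regions near a start. The ESR1 region was also called at 0 h (4.52) and with vehicle (4.22), in 1 list each. There were 0 of 104 at hypoxia and glycolysis, 0 of 136 at androgen response and lipid and 0 of 60 at interferon and NF-kB genes. Adhesion and motility genes had 0 of 119 and ERBB genes 0 of 49. At a share of 0.535%, lists of this size cannot give meaning to a 0. EGF-only regions numbered 4 of 171 (2.34%) at luminal genes (2 at SPDEF, and GREB1 and NRIP1), 4 of 104 (3.85%) at hypoxia, 3 of 136 (2.21%) at androgen response and 1 of 119 (0.840%) at adhesion genes, and 0 at ERBB and interferon genes, against 1.70% of all regions near a start. The 2 SPDEF regions count in both the luminal and the androgen response list. The median difference in percentile, EGF minus HRG, was 0.05 for regions of immediate early genes and 1.22 for feedback genes, against 0.975 for all regions near a start. The other lists lay between 0.57 and 1.54. Of the genes on these lists only XBP1, a luminal and secretory factor, had a region called by limma, higher after EGF and held as 1 peak by the EGF lists and 2 by the HRG lists.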

How the data were processed

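ATAC-seq was done in BT474 and BT474R cells (40 libraries), of which the 4 BT474 libraries at 1 h after EGF or HRG form the comparison. According to the methods of the study, reads were trimmed by the authors (Trim Galore 0.6.6 in the submitters' processing notes), mapped to GRCh38.p13 with BBMap and peaks were called per library with Genrich, without mitochondrial and blacklisted regions. The deposited score of a peak is a signal, the area under its significance curve, and none is below 200. Scores depend on the depth of their library, which is unknown here, since the lists hold no counts. They were therefore ranked within each list. The authors' count-based test was not repeated, and their −log10 p and q values were not used.

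Regions were merged with Python 3.11.15 and tested with limma 3.58.1 (trend, Benjamini-Hochberg, R 4.3.3), on the highest peak percentile of each list. Genes were those of GENCODE release 44, promoters reached 1 kb from a protein-coding start, and nearest genes were sought within 100 kb. Motifs were sought on both strands within 100 bp of the summit. limma was tested on simulated data with independent normal noise. These held no regions split into different numbers of peaks, so the test does not cover the calls reported here. Named regions were the 6 highest-ranked of each class, the 8 limma calls of smallest p per direction, and promoters of listed genes that were in a class or called. Other named regions were picked after their values were seen, as were the 20-point size and the comparison with the untreated lists. The members and lists were chosen with earlier results of these data known. Replicate numbers did not pair the samples. Alternatives are given in the closing section. One called region is not reported here. Regions of chromosome 8 were left out when the regions with an AP-1 match were chosen for display.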

Additional observations from a re-analysis of the deposited data

How the results depend on the processing

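Cutting lists to equal length gave 630 EGF-only and 591 HRG-only regions, against 989 and 299, and AP-1 shares of 7.78% and 23.4%. A minimum score of 400 gave 151 HRG-only regions. A motif window of 250 bp gave AP-1 shares of 13.1% and 31.1%. Leaving out 1 library, which then asks for only 1 list of that ligand, gave 1609 to 3435 EGF-only and 602 to 1256 HRG-only regions. Covering at least 50% of a region or trimming peaks to 400 bp kept both counts within 1.5 times.

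The limma counts for EGF and HRG (13 and 14) were 32 and 34 on the log2 score, 32 and 3 with all 20 BT474 libraries, and 0 and 0 with percentile 0 for missing peaks (2959 and 752 at an unadjusted p under 0.05). Summing scores gave 0 and 0 by percentile and 1 and 11 on the log2 scale, and regions with exactly 1 peak in each list gave 0 and 0. Without EGF replicate 1 or EGF replicate 2 both were 0, without HRG replicate 1 they were 86 and 120, and without HRG replicate 2 they were 430 and 68, so each single library decided them (the lone sample of a ligand was then assumed to vary like the others). By leave-one-out they thus ranged from 0 to 430 and from 0 to 120. With the replicate number as a block they were 17 and 17. Samples of the same number did not deviate together (correlation -0.027). With the summed score, 4 named differences turned sign: POU2F1 (-0.12 points, -0.026 on the log2 scale), SUMF2 (-0.33 and -0.024), GALNT18 (0.069 and 0.010) and ZNF296 (0.65 and 0.042). The cause of the other changes was not tested. The differences in peak number and promoter share kept their direction in all alternatives. Peaks below the minimum score of 200 cannot be seen, so a missing peak is not closed chromatin.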
